A study of Mus musculus with 27 samples.

Results

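The dorsal and the ventral strip of the mouse optic stalk were compared in control embryos at embryonic day 14. The comparison rests on 8 of the 27 libraries of the series, namely the 4 libraries from dorsal pieces and the 4 from ventral pieces of control stalks. They were chosen by their labels for region and genotype, and dorsal and ventral libraries of the same number were taken as pieces of 1 embryo, so that the regions could also be compared within pairs. The question was which genes part the strips of a normal stalk before any gene is deleted.

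The optic stalk is the neuroepithelial tube that joins the optic cup to the forebrain. Axons of retinal ganglion cells grow along it towards the brain, and its own cells become the astrocytes of the optic nerve. Along the dorsoventral axis of the early eye, hedgehog signals from the midline favour Pax2 and Vax expression and stalk fate ventrally, whereas BMP and Wnt signals and retinoic acid synthesis pattern the dorsal and pigmented parts, and near the eye the dorsal stalk wall is continuous with the pigment epithelium.

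Controls were littermates that lacked the Dct-Cre transgene, on a C57Bl6/J background, and the mutants (Smarcc1-DCT-cKO) carried floxed Smarcc1 with Dct-Cre, whose Dct promoter drives the recombinase in pigment epithelium and optic stalk. The Z/EG reporter allele belongs to the breeding of the study and reports Cre activity. Pieces were cut by laser from cryosections 12 µm thick stained with Cresyl violet, and their cDNA was amplified by PCR without molecular identifiers (Geo-seq, RNA sequencing of small captured regions), so that counts are not independent molecules and count-based limits cover counting error only. The labels name a dorsal and a ventral piece and another piece that holds the axons, and do not give the tissue that borders each piece. Mutants entered only a second comparison, of 5 dorsal with 5 ventral libraries, and the 4 axon libraries of controls are given as values.

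The 8 libraries held 13111156 to 24047515 counts. Levels are given in CPM (counts per 1000000 counts of the library), so that 1 read stood for 0.0416 to 0.0763 CPM and a count of 0 allowed a level of up to 3 counts, or 0.125 to 0.229 CPM (the floor). Libraries of 1 region correlated with each other at 0.62 to 0.828 over genes (Pearson, log2 scale), and libraries of different regions and numbers at 0.605 to 0.773. Dorsal library 3 stood apart. It had 10881 genes detected, the fewest of the 8, its mean correlation with its own region was the lowest at 0.634, and haemoglobin genes took 2.43% of its counts against 0.0728% to 0.285% in the other dorsal libraries. Several results that rest on it are therefore also given without it, although not all are.

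The labelled tissue was checked against defining markers, summed per library. The 6 markers of stalk neuroepithelium and astrocyte progenitors (Pax2, Vax1, Sox2, Sox9, Fabp7 and Slc1a3) summed to 895, 1050, 672 and 1060 CPM in dorsal libraries 1 to 4 and to 1720, 1470, 1590 and 1470 CPM in ventral libraries 1 to 4. All dorsal sums lay below all ventral sums, but the gap came from Fabp7, described below. Without it the other 5 markers summed to 674, 946, 510 and 886 CPM dorsally and to 747, 979, 1010 and 958 CPM ventrally (a sum added after seeing the data). The strips then overlapped, although each dorsal sum lay below the ventral sum of its number. The 7 pigment epithelium markers (Otx2, Mitf, Tyr, Tyrp1, Dct, Pmel and Mlana) summed to 4870, 1320, 39.5 and 4890 CPM dorsally and to 933, 215, 1170 and 585 CPM ventrally. In dorsal library 3 that sum was the lowest of the 8. Markers of retinal ganglion cell axons were present in every piece, at 311, 1640, 562 and 422 CPM dorsally and 659, 1850, 938 and 580 CPM ventrally, against 3800 to 6190 CPM in the axon pieces.

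Cells outside the neuroepithelium were present too. The 10 mesenchyme markers (such as the fibrillar collagen genes Col1a1 and Col3a1) summed to 1150, 3560, 11400 and 1920 CPM in the dorsal pieces and to 55.2, 109, 1330 and 157 CPM in the ventral pieces. Each dorsal piece exceeded the ventral piece of its number, and dorsal library 1 lay below ventral library 3. The 6 endothelial markers summed to 197 to 390 CPM dorsally and 23.7 to 65.0 CPM ventrally with no overlap. Red cell markers ranged from 520 to 17200 CPM dorsally, the highest in library 3, and from 226 to 3710 CPM ventrally. Macrophage markers were at 0 in 3 of the 4 dorsal libraries and at 57.5 CPM in library 2, and muscle markers were at 0 in dorsal libraries 1 and 2 and reached 101 CPM in library 3. In bulk pieces like these, fewer cells of a type and less RNA per cell cannot be told apart.

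**Figure D1:**
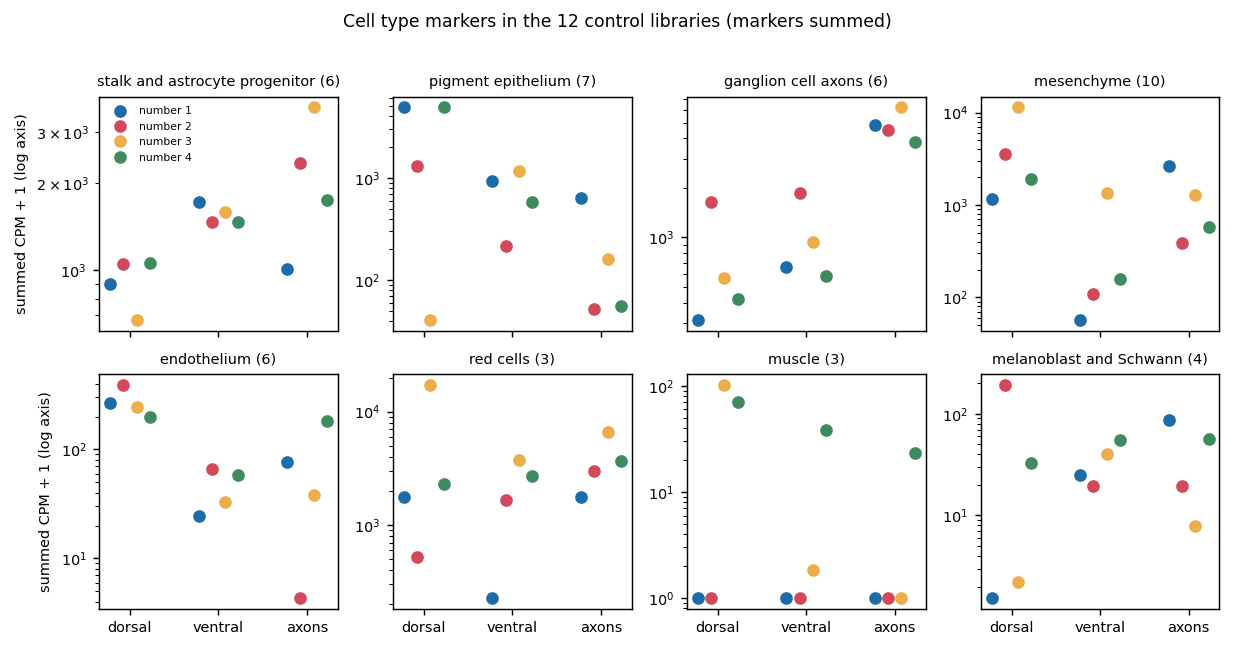
Summed levels of cell type markers in the 12 control libraries. Each panel is 1 marker set with its number of markers, each point is 1 library, the vertical axis is the summed CPM plus 1 on a log scale, and colours give the library number; the stalk and astrocyte progenitor sums lie at 672 to 1060 CPM in dorsal and 1470 to 1720 CPM in ventral pieces, a gap that came from Fabp7, and the endothelial sums at 197 to 390 CPM and 23.7 to 65.0 CPM.

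Across 16118 genes, 0 (0.0%) passed an adjusted p under 0.05 in edgeR's quasi-likelihood test with Benjamini-Hochberg adjustment, and the smallest adjusted p was 0.0817. At an unadjusted p under 0.05, a description and not a call, 548 genes (3.4%) were higher and 539 (3.34%) lower in the dorsal pieces, 6.74% in all where the threshold itself stands for 5%. With the embryo as a term of the fit (a replicate block) these counts were 197 (1.22%) and 213 (1.32%), and 0 genes passed the adjusted threshold. In the 3 embryos of batch B alone (embryo 1 is the only control of batch A) they were 259 and 177. The levels of all 4 dorsal libraries lay above all 4 ventral libraries for 213 genes (1.32%) and below them for 224 (1.39%). If levels without ties were split at random, each order would arise in 1 of 70 splits, a share that neither exceeded. By over 0.58 on the log2(CPM + 1) scale, 267 genes (1.66%) were higher and 222 (1.38%) lower in each of the 4 embryos. No gene is therefore called different between the control strips below. Other tools gave other counts, of which DESeq2's 150 higher and 93 lower genes at an adjusted p under 0.05 were the most with this design. In 157 of these 243 genes the low group lay at or under the floor in all its libraries, and in 114 the groups did not overlap.

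Many of the genes at an unadjusted p under 0.05 lay at or under the floor in all libraries of the strip with the lower mean. Of the 548 higher genes, 377 had all ventral libraries at or under the floor, and of the 539 lower genes, 412 had all dorsal libraries there. Only 111 of the 548 and 96 of the 539 kept the 4 libraries of each strip apart. In the rest, a library of the higher strip lay no higher than a library of the lower strip. An on or off difference between whole strips was therefore not shown for most of these genes. The share of all genes tested that had a strip at or under the floor is not given here for comparison. The common dispersion of the edgeR fit stood for a coefficient of variation of 172% between libraries. The dorsal library with the highest level was most often number 3 (187 of the 548 genes).

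Genes of the connective tissue around the stalk were higher in the dorsal strip throughout. Mesenchyme makes the collagen sheath and future meninges of the nerve, and all 24 of the mesenchyme genes tested were higher in the dorsal mean. Of these, 10 (41.7%) had an unadjusted p under 0.05, all higher dorsally, against 3.4% of all genes; with the replicate block 16 did, against 1.22%. The groups did not overlap for 9 genes, where 1.32% of all genes were higher without overlap. In each embryo 12 were higher by over 0.58, where 1.66% of all genes were. The median difference over the list was 3.33 in mean log2(CPM + 1), or 2.65 without dorsal library 3, beside -0.05 and 0.06 over all genes tested. This list and those below were chosen with earlier results of these data known, so that their shares are a description.

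Pdgfrb, a receptor for platelet-derived growth factor on mesenchymal and perivascular cells, stood at 109, 64.4, 65.2 and 48.5 CPM in dorsal libraries 1 to 4 and had 0 counts in the 4 ventral libraries. It was at least 388-fold higher in the dorsal pieces against the mean ventral floor of 3 counts per library (edgeR unadjusted p 6.14e-05). All 4 dorsal pieces were alike in level, and library 3 did not stand out. Among axon pieces it was at 8.9, 0, 86.9 and 1.69 CPM, so that a level of 0 was not particular to the ventral strip. Only axon library 3 lay in the dorsal range.

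Tgfbi, a secreted matrix protein induced by TGF-beta, had the smallest p of all genes (edgeR unadjusted p 5.07e-06, adjusted p 0.0817). It (ENSMUSG00000035493, chromosome 13, 56609523 to 56639562, mm10) lay at 63.4, 63.6, 729 and 207 CPM dorsally and at 0 counts in every ventral library, at least 1440-fold apart. The separation was complete in every embryo, although library 3 alone held most of the summed dorsal CPM, and the unadjusted p without that library was 3.53e-05 in the same test.

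Fbn1 encodes fibrillin, the scaffold of elastic microfibrils. Its levels were 251, 182, 207 and 295 CPM dorsally and 84.8, 35.8, 91.4 and 63.8 CPM ventrally, a log2 difference of 1.73 ± 0.42 (SE; edgeR unadjusted p 0.0015). The strips did not overlap, library 3 lay inside the range of the other dorsal libraries, and 20.1% of the gene's exonic bases also lie in exons of another gene (given below for each named gene where it exceeded 10%, since the strand setting of the counting is not known). Mfap2, a microfibril protein that binds fibrillin, was at 1176, 875, 969 and 1053 CPM against 481, 696, 396 and 646 CPM (unadjusted p 0.00233), again without overlap.

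Col1a2, a chain of type I collagen, was less even, at 157, 562, 1891 and 223 CPM dorsally and 28.8, 45.7, 127 and 115 CPM ventrally (edgeR unadjusted p 0.00166; 0.00965 without dorsal library 3). Col3a1, of type III collagen, ran from 421 to 4263 CPM dorsally and from 0.204 to 579 CPM ventrally, with the groups overlapping, and its p went from 0.109 to 0.00332 with the replicate block. Ltbp1, which tethers latent TGF-beta to the matrix, was at 177, 84.4, 865 and 58.6 CPM against 0.0511, 3.2, 10.3 and 17 CPM (unadjusted p 0.00191). For the collagens library 3 carried the highest level in both strips.

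Cald1, an actin-binding protein of contractile and migratory cells, was among the genes outside the lists with the smallest p on the dorsal side. It (ENSMUSG00000029761, chromosome 6, 34598500 to 34775473) lay at 250, 226, 416 and 226 CPM dorsally and 58.1, 39.8, 73.4 and 28.1 CPM ventrally, a log2 difference of 2.47 ± 0.45 (SE; edgeR unadjusted p 0.000153, 0.000166 with the replicate block). Every dorsal library was above every ventral one, by 5.61-fold in the means. Ppic, a cyclophilin of the secretory pathway, varied little within a strip, at 577, 504, 469 and 396 CPM against 205, 203, 158 and 184 CPM (log2 difference 1.37 ± 0.26, unadjusted p 0.00019). Itm2a, a membrane protein of differentiating mesenchyme, lay at 824, 737, 896 and 1130 CPM against 530, 341, 411 and 428 CPM (unadjusted p 0.000805).

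Cthrc1, a secreted protein of collagen-producing cells, was at 109, 383, 1166 and 354 CPM dorsally and 3.12, 36.6, 42 and 34.3 CPM ventrally, with the smallest p under the replicate block in these data (3.87e-05; edgeR, adjusted p 0.329). Its levels ordered the 4 embryos alike in both strips, embryo 1 being the lowest and embryo 3 the highest, and the strips did not overlap. Gpc3, a heparan sulphate proteoglycan of the cell surface, was at 150, 123, 551 and 196 CPM against 68.5, 23.8, 48.6 and 64.9 CPM (unadjusted p 0.00177). Sptbn1, a spectrin of the membrane skeleton, was at 424, 466, 827 and 601 CPM against 199, 285, 259 and 263 CPM (unadjusted p 0.00135). Neither overlapped between the strips.

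The other genes that led on the dorsal side were at or close to 0 ventrally. Lgals9, a galectin, was at 64, 56.1, 32 and 65.9 CPM dorsally with 1 read in 1 ventral library (at least 295-fold higher). Tmem119, known from osteoblasts and microglia, was at 20.1, 64.6, 78.3 and 67 CPM with 0 ventral counts (at least 311-fold). Arhgap20, a GTPase-activating protein, was at least 271-fold higher and reached 131 CPM in library 3 against 18.1 to 26.4 CPM in the other dorsal libraries. Angptl7, a secreted protein of the eye's outer tissues, was at 0.333, 1.8, 265 and 70.1 CPM and so rested on libraries 3 and 4. Piezo2, a mechanically gated channel, was at 27.9, 43.9, 171 and 56.9 CPM with a highest ventral level of 0.932 CPM.

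Malat1, a long nuclear RNA, and Lgals1, a galectin of mesenchyme, were named by their p with the replicate block (edgeR unadjusted p 0.000101 and 0.000175, against 0.00832 and 0.013 without it). Malat1 was higher dorsally in each embryo, at 1976, 6305, 4044 and 3780 CPM against 1222, 3214, 1545 and 1585 CPM, while the groups overlapped because embryo 2 was high in both strips. Lgals1 was at 497, 1104, 3017 and 753 CPM against 160, 147, 803 and 295 CPM and overlapped through ventral library 3.

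**Figure D2:**
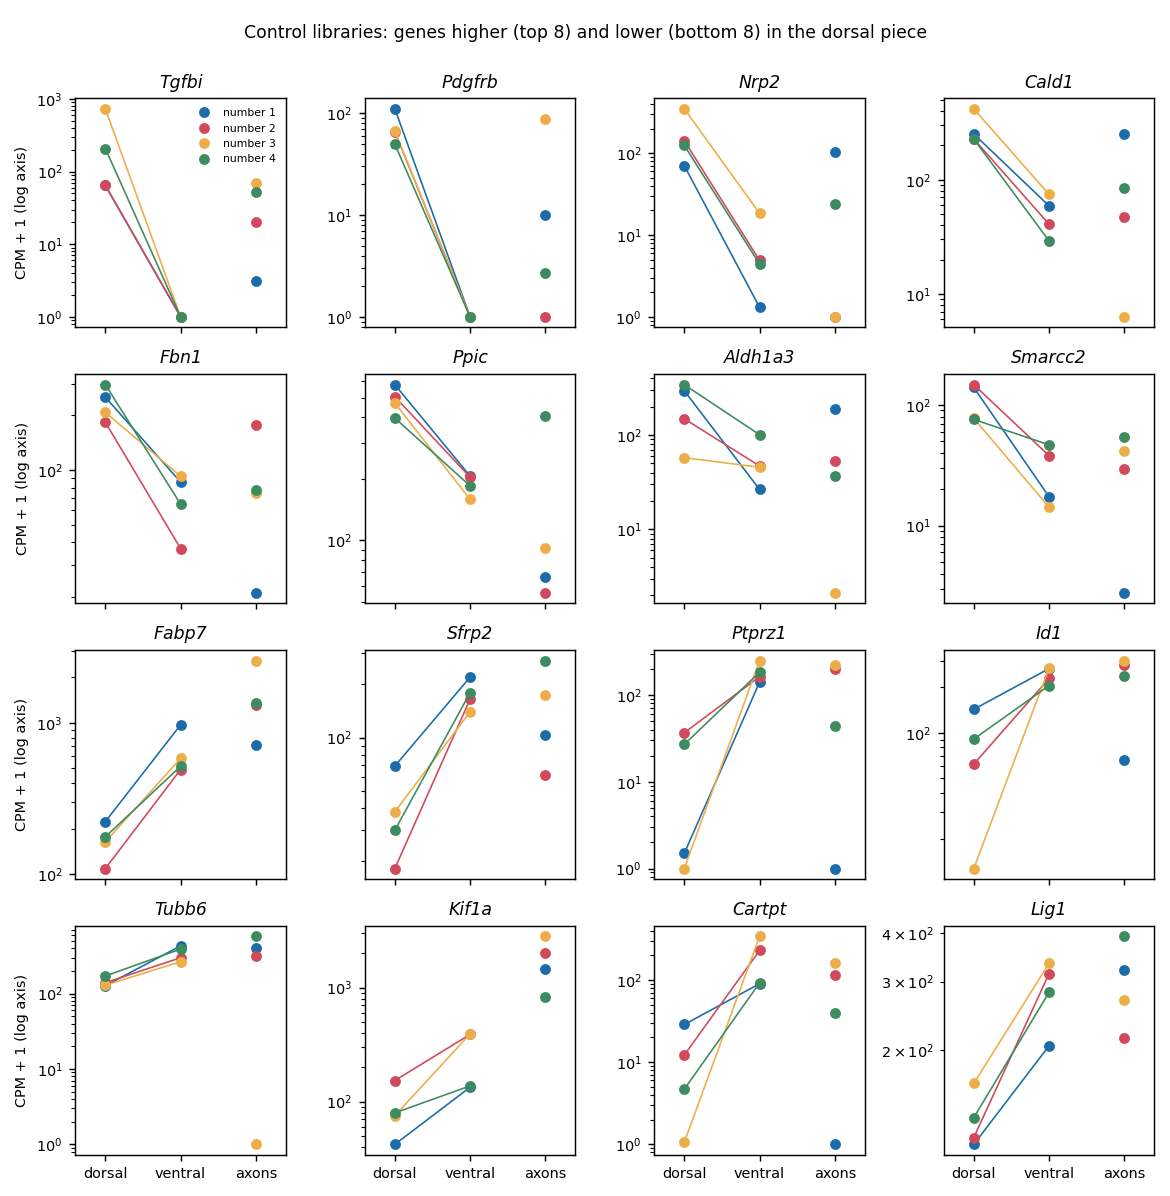
Levels of 16 genes in the control libraries. The vertical axis is CPM plus 1 on a log scale, each point is 1 library, colours give the library number and lines join the dorsal and ventral pieces of a number; the axon pieces are shown beside them. Tgfbi and Pdgfrb lie at 0 in the 4 ventral libraries, Ppic falls in 2 tight groups (396 to 577 and 158 to 205 CPM), and Fabp7 lies at 108 to 221 CPM dorsally and 490 to 970 CPM ventrally.

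Endothelial genes, which mark blood vessels, were likewise higher dorsally. All 12 endothelial genes tested were higher in the dorsal mean, with a median difference of 2.71 in mean log2(CPM + 1) (2.80 without dorsal library 3), and 3 of them (25.0%, against 3.4% of all genes) had an unadjusted p under 0.05. With the replicate block 1 of the 12 did. Pecam1, the adhesion molecule of endothelial junctions, was at 57.8, 19, 7.02 and 0 CPM dorsally and at 0 in the ventral pieces (at least 113-fold higher). Eng, a TGF-beta co-receptor of endothelium, was at 32.2, 0.496, 1 and 17.5 CPM and also at 0 ventrally (at least 69.2-fold). Kdr, the main VEGF receptor, was higher in each embryo, at 41.2, 173, 88.2 and 101 CPM against 19.1, 1.75, 14.1 and 54.4 CPM (edgeR unadjusted p 0.0429), and the ranges overlapped through ventral library 4.

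Sox7, a transcription factor of vessels outside the endothelial list, was at 71.2, 16.6, 14.4 and 25.5 CPM dorsally with 0 ventral counts (at least 173-fold). Of 8 mural cell genes 6 (75.0%, against 47.5% of all genes) were higher. An unadjusted p under 0.05 was reached by 3 (37.5%, against 3.4%), and by 0 with the replicate block. The 3 defining mural markers (Rgs5, Acta2 and Tagln) summed to 0, 0.124, 153 and 8.61 CPM in dorsal libraries 1 to 4. Ventrally their sums were 0.256, 74.8, 37.5 and 19.8 CPM, so that only embryo 3 was higher dorsally. Des, an intermediate filament of muscle and pericytes, was at 41.1 CPM in dorsal library 2 and under 1 CPM in the other dorsal libraries.

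Of the 9 muscle genes 8 (88.9%, against 47.5% of all genes) were higher. The list's median difference was 1.498 with and 0.48 without dorsal library 3. Acta1, skeletal muscle actin, was at 160 CPM in that library and at 0 in the other dorsal pieces. Erythroid genes also followed it, their median difference being 0.76 with and -0.31 without library 3. Alas2, which starts haem synthesis in red cell precursors, went the other way, with 0 counts dorsally and 3.27, 4.12, 6.46 and 7.58 CPM ventrally, and 15.5% of its exonic bases also lie in another gene.

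Genes of the astrocyte lineage leaned to the ventral strip. Of 23 astrocyte progenitor genes tested, 17 were lower in the dorsal mean, 5 of them (21.7%) with an unadjusted p under 0.05 against 3.34% of all genes, and 1 (4.35%) was higher at that p. The median difference was -0.47 in mean log2(CPM + 1), and -0.53 without dorsal library 3. Those 5 genes were Fabp7, Id4, Ptprz1, Id3 and Aldoc, and the higher one was Nfib.

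Fabp7, the brain lipid-binding protein of radial glia and astrocyte progenitors, had the smallest p among genes lower in the dorsal pieces. It (ENSMUSG00000019874, chromosome 10, 57784881 to 57788450, mm10) stood at 221, 108, 162 and 175 CPM dorsally and at 970, 490, 581 and 515 CPM ventrally. The ventral mean of 639 ± 224 CPM (SD, n = 4) was 3.84 times the dorsal mean of 167 ± 46.7 CPM (SD, n = 4), a log2 difference of -1.95 ± 0.34 (SE; edgeR unadjusted p 8.58e-05, 4.08e-05 with the replicate block, 0.000415 without dorsal library 3). Each embryo showed it, by a similar amount, and the strips did not overlap. In the axon pieces of the same embryos Fabp7 was at 711, 1320, 2584 and 1346 CPM.

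The promoter of Fabp7 is shown because the gene led the ventral side and because its upstream region is known for a site of the Notch effector RBPJ. The 300 bases run from 250 bases before the gene's start to 50 after it, as RefSeq places that start on GRCm38.p6, 42 bases from the start of the gene given above, 5′ to 3′ on the strand of the gene, and capitals mark the letters TGGGAA, the core of the RBPJ site, or TTCCCA, the same letters read from the opposite strand.
Fabp7 promoter (chr10:57784673-57784972, plus strand): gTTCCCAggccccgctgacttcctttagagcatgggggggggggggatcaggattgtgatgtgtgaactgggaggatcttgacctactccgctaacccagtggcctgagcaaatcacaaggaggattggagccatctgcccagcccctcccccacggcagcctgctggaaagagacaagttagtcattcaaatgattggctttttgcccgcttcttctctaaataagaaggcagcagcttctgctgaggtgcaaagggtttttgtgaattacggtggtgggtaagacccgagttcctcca
The window held 1 match, 249 bases before RefSeq's start at its first letter, and 25.6% of the 32851 promoters of this length held at least 1. Of 18 Notch genes tested, 10 were higher and 8 lower in the dorsal mean. At an unadjusted p under 0.05 there were 2 in each direction (11.1% each), against 3.4% higher and 3.34% lower of all genes. With the replicate block 1 was higher and 0 lower. A link of Notch activity to the Fabp7 difference was not tested.

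Ptprz1, a receptor phosphatase of glial progenitors, was at 0.499, 35.8, 0 and 26 CPM dorsally and at 140, 162, 249 and 182 CPM ventrally (edgeR unadjusted p 0.0232; 0.0103 without dorsal library 3). It was near or at 0 in dorsal libraries 1 and 3, and libraries 2 and 4 lay below every ventral library. Id4, an inhibitor of bHLH factors that glial progenitors use, was at 76.9, 26.2, 32.6 and 29.7 CPM against 98.6, 111, 181 and 125 CPM (unadjusted p 0.0145), and did not overlap either. Id3, of the same family, was lower in each embryo, at 979, 397, 606 and 419 CPM against 1578, 718, 915 and 1144 CPM (unadjusted p 0.0297; 0.0017 with the replicate block), the overlap coming from the high levels of embryo 1 in both strips.

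Nfib, a nuclear factor that promotes gliogenesis, had the opposite sign, at 267, 482, 1266 and 401 CPM dorsally and 123, 440, 235 and 230 CPM ventrally (edgeR unadjusted p 0.0288). Without dorsal library 3 its p was 0.214. Aldoc, an aldolase of astrocytes, was at 0 dorsally and at 23.2 and 11.4 CPM in ventral libraries 2 and 4 only. Vim, the intermediate filament of neuroepithelium, was lower dorsally in each embryo by little, at 1737, 1359.6, 2575 and 1344 CPM against 1740.1, 1693, 3342 and 1683 CPM (unadjusted p 0.377; 0.0483 with the replicate block).

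Sox9, a regulator of glial fate, was at 244, 263, 237 and 286 CPM dorsally and 281, 317, 575 and 316 CPM ventrally (edgeR unadjusted p 0.0877). It was lower dorsally in each of the 4 embryos, and dorsal library 4 overlapped ventral library 1. Sox2, of neural progenitors, was at 103, 120, 25.5 and 54.7 CPM against 63.9, 188, 133 and 108 CPM (unadjusted p 0.228). Hes1, a Notch target, was at 260, 325, 283 and 187 CPM against 337, 297, 366 and 353 CPM (unadjusted p 0.193). Both overlapped, and embryo 1 opposed the others for Sox2, embryo 2 for Hes1.

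Of the 9 retinal progenitor genes tested 7 (77.8%, against 52.5% of all genes) were lower dorsally. At an unadjusted p under 0.05, 1 (11.1%, against 3.34%) was lower, and 3 were with the replicate block (against 1.32% of all genes). The first was Sfrp2, a secreted inhibitor of Wnt signals (ENSMUSG00000027996, chromosome 3, 83766321 to 83774316), at 68, 17.2, 37.1 and 29 CPM dorsally and 218, 164, 139 and 178 CPM ventrally. The difference of -2.20 ± 0.54 on the log2 scale (SE; edgeR unadjusted p 0.00148) was present in each embryo, without overlap, and 16.1% of its exonic bases also lie in another gene. Lhx2, which eye progenitors need, was at 43.6, 47.5, 0 and 58.1 CPM against 57.7, 261, 142 and 114 CPM (unadjusted p 0.129), overlapping through ventral library 1. Six6, of the ventral optic cup and stalk, was lower in each embryo, at 103, 14.2, 72.3 and 147 CPM against 131, 72, 229 and 227 CPM (unadjusted p 0.153; 0.0426 with the replicate block).

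Patterning genes of the stalk and the dorsoventral axis were split. Of 26 stalk and dorsoventral patterning genes tested, 13 were higher and 13 lower dorsally, with a median difference of -0.01. Pax2, the stalk determinant, was at 38.8, 33.1, 0.826 and 39.2 CPM dorsally and 56.5, 27.8, 6.91 and 46.8 CPM ventrally (edgeR unadjusted p 0.809), low in embryo 3 in both strips. Vax1 was at 9.98, 4.22, 0 and 0 CPM against 1.99, 0, 0.114 and 2.42 CPM (unadjusted p 0.563). Vax2, a ventral eye factor, reached 11.1 and 14.3 CPM in ventral libraries 1 and 4 and was at 0 in the other ventral libraries, against at most 0.208 CPM dorsally (unadjusted p 0.0825).

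Pax6, of optic cup and pigment epithelium, was at 106, 39, 47.4 and 53 CPM dorsally and 50.6, 83.3, 53 and 107 CPM ventrally (edgeR unadjusted p 0.712), with ranges that nearly coincide. The nuclear receptors Nr2f1 and Nr2f2, which pattern the eye and stalk, were abundant and even, at 369 to 637 and 335 to 652 CPM dorsally and 464 to 706 and 331 to 538 CPM ventrally (unadjusted p 0.463 and 0.937).

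All 4 patterning genes with an unadjusted p under 0.05 (15.4%, against 3.4%) were higher dorsally, whereas with the replicate block 1 was higher and 1 lower at that p. Those 4 were Aldh1a3, Efnb1, Tbx2 and Tbx3. Tbx2 and Tbx3, T-box factors of the dorsal eye that BMP signals induce, were detected dorsally in 2 libraries each, at up to 27.5 and 11.4 CPM, and had 0 ventral counts. Efnb1, a dorsal ephrin that guides axons, was at 11.1, 71.9, 57.2 and 6.46 CPM dorsally and 0, 1.14, 0 and 2.42 CPM ventrally (edgeR unadjusted p 0.0378), without overlap.

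Retinoic acid genes leaned dorsally. Of 15 tested, 13 were higher, 4 of them (26.7%) with an unadjusted p under 0.05 against 3.4% of all genes, and the median difference was 1.15 (1.54 without dorsal library 3). Aldh1a3, which makes retinoic acid in the eye (ENSMUSG00000015134, chromosome 7, 66390890 to 66427517), was at 294, 148, 56.6 and 342 CPM dorsally and 25.5, 46.1, 44.6 and 100 CPM ventrally. Its log2 difference was 1.95 ± 0.61 (SE; edgeR unadjusted p 0.00732). Embryo 3 showed the smallest difference, the overlap being that of dorsal library 3 with ventral library 4, and without that dorsal library the p was 0.0013.

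Rdh10, which makes the retinaldehyde that Aldh1a3 oxidises, had the same shape, at 379, 257, 93.1 and 326 CPM dorsally and 118, 96.3, 134 and 95.9 CPM ventrally (edgeR unadjusted p 0.0157; 0.000976 without dorsal library 3). Only embryo 3 was higher ventrally. Cyp26a1, which breaks retinoic acid down, was at 0, 1.24, 159 and 58.8 CPM dorsally and at 0 ventrally (at least 297-fold higher), a level set by libraries 3 and 4.

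Genes of the pigment epithelium were higher dorsally in 3 of 4 embryos. Of 16 melanin genes 11 were higher and 5 lower, with a median difference of 0.97 in mean log2(CPM + 1), or 1.77 without dorsal library 3, and 3 (18.8%) had an unadjusted p under 0.05 against 3.4% of all genes; with the replicate block 0 did. Pmel, the fibril protein of the melanosome and the most abundant of them, was at 4117, 1173, 37.6 and 4433 CPM dorsally and 794, 112, 1018 and 449 CPM ventrally. The p was 0.116, and 0.005 without dorsal library 3 (edgeR, unadjusted). In embryos 1, 2 and 4 the dorsal piece was the higher, and in embryo 3 the ventral piece was.

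Dct, the tautomerase of melanin synthesis whose promoter drives Cre in the mutants, followed the same order, at 304, 30.6, 1.95 and 171 CPM dorsally and 34.1, 4.35, 46.2 and 13.2 CPM ventrally (edgeR unadjusted p 0.0739; 0.0138 without dorsal library 3). Trpm1, a channel of pigment cells, was at 350, 377, 0 and 815 CPM against 44.8, 83.6, 274 and 158 CPM (unadjusted p 0.339; 0.0107 without that library). Oca2, which sets melanosome pH, was at 312, 25.2, 4.01 and 61.7 CPM against 0, 0, 14.3 and 0.435 CPM (unadjusted p 0.0442). Embryo 3 again opposed the others in each of these genes.

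Mlph, a linker for melanosome transport, and Gpnmb, a melanosome glycoprotein, were the other genes at that p and were low. Mlph was at 11.3, 16.2, 0 and 8.14 CPM dorsally, and Gpnmb at 1.25, 0, 0 and 38 CPM, with at most 1 read in 1 ventral library for each. They were at least 48.1-fold and at least 53-fold higher against the ventral floor.

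The promoters of 3 melanin genes are shown because in these genes embryo 3 was lower dorsally and the other embryos higher, by under 1 CPM in embryo 3 for Tyrp1, and because they are textbook targets of Mitf, the master factor of pigment cells, which binds the letters CATGTG. Capitals mark CATGTG, or CACATG where it is read from the opposite strand, in windows of the same length and source as above, whose RefSeq starts lie 2 bases (Dct), 90 bases (Tyrp1) and 1 base (Oca2) from those of the annotation of the counts.
Dct promoter (chr14:118052197-118052496, minus strand): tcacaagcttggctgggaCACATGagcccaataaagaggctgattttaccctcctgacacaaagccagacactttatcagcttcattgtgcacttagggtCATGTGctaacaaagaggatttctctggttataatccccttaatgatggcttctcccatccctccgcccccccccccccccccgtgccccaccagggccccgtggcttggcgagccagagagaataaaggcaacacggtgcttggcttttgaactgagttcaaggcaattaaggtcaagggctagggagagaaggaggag
Tyrp1 promoter (chr4:80833963-80834262, plus strand): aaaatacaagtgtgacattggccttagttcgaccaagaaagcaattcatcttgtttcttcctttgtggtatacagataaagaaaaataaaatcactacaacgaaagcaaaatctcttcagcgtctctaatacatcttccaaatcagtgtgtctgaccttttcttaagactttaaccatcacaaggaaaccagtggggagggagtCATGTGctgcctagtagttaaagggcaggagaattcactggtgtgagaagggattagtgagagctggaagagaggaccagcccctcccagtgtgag
Oca2 promoter (chr7:56239509-56239808, plus strand): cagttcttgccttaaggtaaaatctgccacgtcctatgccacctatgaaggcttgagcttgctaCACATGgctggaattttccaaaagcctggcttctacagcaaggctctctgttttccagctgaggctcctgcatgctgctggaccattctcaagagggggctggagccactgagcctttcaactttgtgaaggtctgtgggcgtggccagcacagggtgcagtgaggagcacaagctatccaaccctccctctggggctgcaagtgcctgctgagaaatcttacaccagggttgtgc
Dct held 2 matches, and Tyrp1 and Oca2 held 1 each, that of Tyrp1 beginning 46 bases before the start. Of the 16 melanin genes 11 were found in the promoter table, and 6 of those 11 (54.5%) held a match, where 14.2% of all 32851 promoters did. Among the melanin genes at an unadjusted p under 0.05 (edgeR), Oca2 held a match, whereas Mlph and Gpnmb held 0. A link of Mitf to the dorsal difference was not tested. Tyrp1, which oxidises a melanin precursor, was at 87.5, 65.9, 0 and 21 CPM dorsally and 0, 0, 0.8 and 17.8 CPM ventrally (edgeR unadjusted p 0.212).

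The fate regulators of the pigment epithelium were not as clear as its products. Mitf was at 173, 50.9, 0 and 156 CPM dorsally and 72.6, 89.8, 105 and 102 CPM ventrally (edgeR unadjusted p 0.992), higher dorsally in embryos 1 and 4 and lower in embryos 2 and 3. Otx2, its partner, was detected dorsally in the same embryos 1 and 4, at 48.3 and 64.3 CPM, and ventrally only in embryo 4, at 3.54 CPM (unadjusted p 0.145). Otx1 was even, at 87.5 to 356 CPM and 108 to 243 CPM. Of 9 such genes 7 (77.8%, against 47.5% of all genes) were higher, and only Bmp7 had an unadjusted p under 0.05 (11.1%, against 3.4%).

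Among 15 further pigment epithelium genes, of retinoid handling, transport and secretion, 13 (86.7%, against 47.5% of all genes) were higher dorsally. With the replicate block 1 reached an unadjusted p under 0.05, and without it 3 (20%, against 3.4%) did. Rdh10, described above, was among these. Serpinf1, also among them, a secreted inhibitor of vessel growth that mesenchyme makes as well, was at 11.9, 115, 388 and 34.7 CPM against 18.1, 0, 9.89 and 9.94 CPM, with p 0.0209 and, without dorsal library 3, 0.185 (edgeR, unadjusted).

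**Figure D3:**
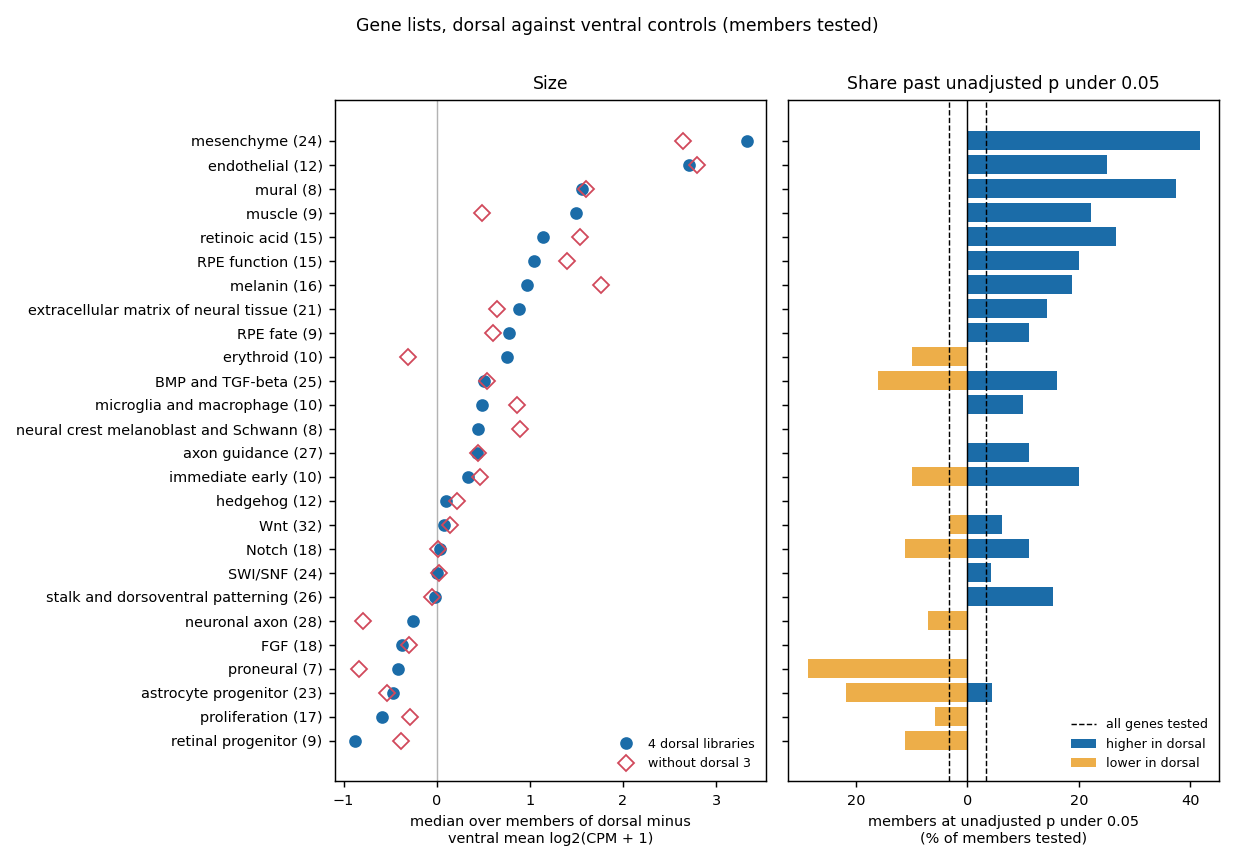
The 26 gene lists in the comparison of dorsal with ventral controls, with the number of members tested. The left panel gives the median over members of the dorsal minus ventral difference in mean log2(CPM + 1), with all 4 dorsal libraries (filled) and without dorsal library 3 (open); the right panel gives the share of members at an unadjusted p under 0.05 in each direction, with the shares of all genes tested (3.4% and 3.34%) as dashed lines. Mesenchyme and endothelial genes lie furthest to the right (3.33 and 2.71), and erythroid genes change sign without library 3.

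Signalling lists were mixed. In the BMP and TGF-beta list 18 of 25 genes (72.0%, against 47.5% of all genes) were higher dorsally. An unadjusted p under 0.05 was reached by 4 (16%) in each direction, against 3.4% higher and 3.34% lower. With the replicate block 4 were higher and 2 lower at that p. Those higher were Tgfbi, Fstl1, Bmp7 and Tgfb3 (12.4% of its exonic bases also lie in another gene), and those lower were Id1, Id3, Fst and Msx1. Bmp7, a ligand of the early eye, was at 61.4, 185, 143 and 145 CPM dorsally and 46.4, 13.2, 41.3 and 56.2 CPM ventrally (edgeR unadjusted p 0.0148), without overlap.

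Id1, a direct target of BMP receptors, was on the opposite side from the ligand. Its levels were 142, 61.2, 11.7 and 90 CPM dorsally and 265, 228, 267 and 204 CPM ventrally (edgeR unadjusted p 0.015), lower dorsally in each embryo and without overlap. Fstl1, a secreted BMP antagonist, was at 823, 1159, 2179 and 1223 CPM against 845, 665, 682 and 725 CPM (unadjusted p 0.0104), with embryo 1 even. Fst, which binds activin, was at most 0.202 CPM dorsally and at 12.8, 0, 36.3 and 6.9 CPM ventrally. Tgfb2, the most abundant ligand, followed the embryo and not the strip, at 345, 916, 384 and 391 CPM against 360, 891, 365 and 241 CPM (unadjusted p 0.815).

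Hedgehog genes showed no member at an unadjusted p under 0.05 among 12 tested, 7 higher and 5 lower. Ptch1, the receptor and a target of the pathway, was at 55.3, 232, 34.6 and 106 CPM dorsally and 135, 95.9, 111 and 93.3 CPM ventrally (edgeR unadjusted p 0.875). Gli3, its main repressor, was at 124, 143, 23.4 and 100 CPM against 133, 128, 248 and 154 CPM (unadjusted p 0.152). Library 3 was the lowest dorsal piece for both.

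The 32 Wnt genes were split evenly, 16 higher and 16 lower. At an unadjusted p under 0.05, 2 (6.25%, against 3.4% of all genes) were higher and 1 (3.12%, against 3.34%) lower. Rspo3, which amplifies Wnt signals, was at 51.9, 54.5, 98.9 and 106 CPM dorsally and 7.21, 28.7, 30.6 and 12.9 CPM ventrally (edgeR unadjusted p 0.0445), with no overlap and 13.1% of exonic bases in common with another gene. Fzd4, a receptor, reached 30.5 CPM dorsally with 0 ventral counts, and the gene lower dorsally was Sfrp2, described above. Wnt7b, a ligand, was at 43.8, 42.9, 93.6 and 36.5 CPM against 193, 400, 4.4 and 231 CPM, so that embryo 3 alone was higher dorsally (unadjusted p 0.0514; 0.0403 without dorsal library 3). Wif1, a secreted inhibitor, was even at 350 to 543 and 230 to 609 CPM.

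In the Notch list, Jag1, a ligand, was at 26.7, 36.7, 68.9 and 47 CPM dorsally and 6.95, 0, 0.4 and 0.683 CPM ventrally (edgeR unadjusted p 0.037; 0.0742 without dorsal library 3), with no overlap. Hey1, a target, was at 0, 22, 26.3 and 6.73 CPM against at most 1 read ventrally. The genes lower at that p, Lfng and Nrarp, had ventral levels of at most 3.12 CPM, and 79.4% of the exonic bases of Nrarp also lie in another gene. None of 18 FGF genes had an unadjusted p under 0.05 (6 higher, 12 lower).

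Guidance genes leaned dorsally, 21 of 27 (77.8%, against 47.5% of all genes) being higher. At an unadjusted p under 0.05, 3 of them (11.1%, against 3.4%) were higher, or 2 with the replicate block. Nrp2, a receptor for semaphorins and VEGF (ENSMUSG00000025969, chromosome 1, 62703285 to 62818695), was at 69.2, 141, 347 and 123 CPM dorsally and 0.307, 3.89, 17.4 and 3.42 CPM ventrally, a log2 difference of 4.72 ± 1.09 (SE; edgeR unadjusted p 0.000997). All 4 embryos showed it, with the same order of the 4 embryos in both strips. Epha3, a receptor for ephrins, was at 34.5, 195, 489 and 200 CPM against 0, 0.992, 28.1 and 10.4 CPM (unadjusted p 0.00994), also without overlap. Slit2, a repellent of retinal axons, was higher in each embryo by little, at 338, 320, 300 and 271 CPM against 302, 247, 168 and 211 CPM (unadjusted p 0.188).

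Matrix genes of neural tissue were higher in 14 of 21 cases (66.7%, against 47.5% of all genes). An unadjusted p under 0.05 was reached by 3 (14.3%, against 3.4%), and also by 3 with the replicate block. Lamb1, a laminin chain of basement membranes, was at 216, 181, 428 and 331 CPM dorsally and 128, 97.4, 16.9 and 46.5 CPM ventrally (edgeR unadjusted p 0.0045), with no overlap. Col4a1, collagen of the same membranes, was higher in each embryo, at 217, 209, 683 and 111 CPM against 111, 127, 178 and 53.5 CPM (unadjusted p 0.0349; 0.276 without dorsal library 3). Vcan, a proteoglycan that repels axons, was at 8.82, 189, 618 and 110 CPM against 69.5, 30.9, 41.1 and 16.3 CPM, and embryo 1 opposed the others (unadjusted p 0.019; 0.184 without dorsal library 3).

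Neuronal genes were close to the background. Of 28 tested, 19 (67.9%, against 52.5% of all genes) were lower dorsally, 2 of them (7.14%, against 3.34%) with an unadjusted p under 0.05, and with the replicate block 2 were higher and 1 lower at that p. Kif1a, a motor of axonal transport, was at 41.2, 152, 74.3 and 78.7 CPM dorsally, 133, 387, 391 and 136 CPM ventrally and 1455, 2022, 2814 and 822 CPM in the axon pieces (edgeR unadjusted p 0.00801 for dorsal against ventral). It was lower dorsally in each embryo, with dorsal library 2 overlapping ventral libraries 1 and 4. Thy1, a surface protein of ganglion cells, was at 0 dorsally and above 0 in 2 ventral libraries. Map1b, a microtubule protein of axons, was at 260, 905, 203 and 319 CPM against 410, 691, 486 and 318 CPM (unadjusted p 0.6).

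Embryo 2 was the richest in neuronal RNA in both strips. Isl1, a ganglion cell factor, was at 127 CPM in its dorsal and 145 CPM in its ventral library and at 0 in the other 6 libraries. Tubb3, neuronal tubulin, was at 249 and 391 CPM in those libraries, and the remaining level was 152 CPM in dorsal library 3 and 2.24 CPM or less elsewhere. Of 7 proneural genes 5 (71.4%, against 52.5% of all genes) were lower dorsally. An unadjusted p under 0.05 was reached by 2 (28.6%, against 3.34%), and by 0 with the replicate block. Insm1, a zinc finger factor of newborn neurons, was detected above the floor in 1 ventral library, at 11.1 CPM.

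Proliferation genes were lower dorsally in 15 of 17 cases (88.2%, against 52.5% of all genes). The median difference was -0.58 (-0.29 without dorsal library 3). At an unadjusted p under 0.05, 1 gene (5.88%, against 3.34%) was lower, or 2 with the replicate block. Pcna, the sliding clamp of DNA replication, was lower in each embryo, at 268, 146, 171 and 289 CPM against 472, 354, 199 and 516 CPM (edgeR unadjusted p 0.0396; 0.0831 without dorsal library 3). Mki67, a marker of cycling cells, was at 130, 175, 241 and 405 CPM against 394, 470, 380 and 334 CPM (unadjusted p 0.0515), embryo 4 being the exception. Top2a, of mitotic chromosomes, was at 299 to 639 and 521 to 625 CPM (unadjusted p 0.291). Lig1, the ligase of replication outside that list, was the more even, at 114, 118, 163 and 133 CPM against 204, 313, 333 and 280 CPM (unadjusted p 0.00493), with no overlap.

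The other genes that led on the ventral side held few with a known tie to one cell type. Tubb6, a tubulin, was at 127, 139, 129 and 171 CPM dorsally and 430, 299, 265 and 390 CPM ventrally (log2 difference -1.31 ± 0.29; edgeR unadjusted p 0.000703). Cartpt, a neuropeptide precursor, was at 27.8, 11.2, 0.059 and 3.7 CPM against 89.2, 228, 339 and 91.2 CPM (unadjusted p 0.00487). Neither overlapped. Rtn3, a reticulon of the endoplasmic reticulum, was at 171 to 293 against 353 to 551 CPM, and Ndufb8, a subunit of respiratory complex I, at 449 to 577 against 706 to 1093 CPM, both likewise apart.

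Abhd4, a lipase of phospholipid turnover, was at 195, 325, 84.6 and 94.3 CPM against 493, 435, 509 and 335 CPM (edgeR unadjusted p 0.00579). Msmo1, of cholesterol synthesis, was at 121, 39.1, 99.7 and 211 CPM against 352, 243, 295 and 421 CPM (unadjusted p 0.007). Nxn, a redox regulator of Wnt signals, was at 20 to 86.7 against 99.3 to 247 CPM. Ckb, brain creatine kinase, and Eif5a, a translation factor, were lower in each embryo with overlapping ranges, and had an unadjusted p of 0.0023 and 0.000537 with the replicate block against 0.00709 and 0.148 without it.

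Genes at or under the floor dorsally included Sema5b, a semaphorin, at 11.3, 114, 0.114 and 48.5 CPM ventrally (at least 252-fold higher there) and Slc4a11, a membrane transporter, at 34.6, 0.229, 60.4 and 28.3 CPM (at least 179-fold). Top3a, a topoisomerase, was at 0, 29.8, 91.6 and 18.9 CPM (at least 203-fold). Zfp64 and Zbtb8a, zinc finger proteins, were at least 144-fold and at least 110-fold higher ventrally, present in all 4 ventral libraries at 10.6 to 58.3 and 7.66 to 42.9 CPM, and 11.4% of the exonic bases of Zbtb8a also lie in another gene. Sema5b and Slc4a11 were each near the floor in 1 ventral library.

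The SWI/SNF list, the complex that the study disrupts in the mutants, was balanced, with 12 genes higher and 12 lower in the dorsal mean. At an unadjusted p under 0.05, 1 (4.17%, against 3.4% of all genes) was higher. This was Smarcc2, the paralogue of Smarcc1 (ENSMUSG00000025369, chromosome 10, 128459248 to 128490482), at 138, 146, 76.2 and 74.6 CPM dorsally and 16.3, 36.9, 13.2 and 45.6 CPM ventrally. The dorsal mean of 109 ± 38.6 CPM (SD, n = 4) was 3.88 times the ventral mean of 28.0 ± 15.8 CPM (SD, n = 4), with a log2 difference of 1.96 ± 0.68 (SE; edgeR unadjusted p 0.0135, 0.0292 with the replicate block, 0.00865 without dorsal library 3). The strips did not overlap. Smarcc1 was at 116, 75.9, 289 and 97.2 CPM against 198, 90.8, 75.7 and 155 CPM (unadjusted p 0.743), higher dorsally in embryo 3 alone, and Smarca4, the ATPase, at 167 to 433 against 183 to 303 CPM (unadjusted p 0.8).

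The same regions of the mutants, which share no library with the controls, gave 1055 genes higher (6.53%) and 952 lower (5.89%) dorsally at an unadjusted p under 0.05 among 16168 genes, with 0 below an adjusted p of 0.05 (edgeR). Of the 529 genes higher in control dorsal pieces at that p and tested in mutants, 118 (22.3%, and 11.2% of the 1055) were higher in mutants too, and 61 (11.5%) were lower there at that p. Of the 528 lower genes, 85 (16.1%, and 8.93% of the 952) were lower in mutants too and 46 (8.71%) were higher.

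Several control differences were also seen in mutants. Fabp7 was at 17.2, 86.7, 57.5, 140 and 204 CPM in mutant dorsal libraries 1 to 5 and at 869, 560, 682, 542 and 962 CPM in the ventral ones (log2 difference -2.83, edgeR unadjusted p 4.19e-05), lower dorsally in 5 of 5. Cald1 was at 366, 226, 468, 434 and 416 CPM against 98.8, 105, 19.2, 123 and 72.9 CPM (2.22, unadjusted p 5.41e-05). Gpc3, Aldh1a3 and Lamb1 were higher dorsally in 5 of 5 mutants too, with unadjusted p from 0.000364 to 0.0289. Pigment genes were the more regular in mutants: 9 of the 16 melanin genes were higher at an unadjusted p under 0.05 (6.53% of all genes), with a median difference of 3.09, and Pmel and Oca2 were higher in 5 of 5.

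For 2 other genes the dorsal-ventral difference itself was called unlike in controls and mutants. The interaction of region with genotype, tested in edgeR with batch as a term, passed an adjusted p under 0.05 for 2 of 16329 genes (0.0122%), Fam49a and Ptn. At an unadjusted p under 0.05, a description and not a call, there were 1334 of the 16329, where the threshold itself stands for 5%. Fam49a, a regulator of Rac signalling, was at 65.9, 93.8, 51.9 and 85.7 CPM in control dorsal and 102, 73.1, 37.8 and 21.8 CPM in control ventral pieces, whereas in mutants it was at 0, 0.119, 0, 0 and 0.0665 CPM dorsally and 16.8, 17.3, 87.3, 58.2 and 71.9 CPM ventrally (edgeR adjusted p 0.0244). Ptn, a secreted growth factor of neural progenitors, was at 1302, 1589, 2364 and 1910 CPM against 1645, 2102, 2033 and 2206 CPM in controls, and at 157, 326, 274, 562 and 921 CPM against 1558, 1380, 2611, 3296 and 3362 CPM in mutants (edgeR adjusted p 0.0255). In both genes the control strips overlapped and the mutant strips did not. With each embryo as a replicate block the interaction passed for 0 genes.

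Below that threshold, several genes higher dorsally in controls were not so in mutants. Of the mesenchyme list, Fbn1 and Mfap2 were lower dorsally in 5 of 5 mutants, at log2 differences of -1.08 and -0.76 (edgeR unadjusted p of the interaction 0.000215 and 0.000121). Col1a2, of the same list, was at -0.42 in mutants (interaction unadjusted p 0.000758). Outside it, Ppic was at -0.16 (0.000723), Itm2a at -0.48 (0.00117) and Smarcc2 at -0.26 (0.04). Over the mesenchyme list the median difference was 0.74 in mutants and 3.33 in controls, with 7 genes higher and 3 lower at an unadjusted p under 0.05 in mutants.

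Other genes overlapped between the control strips and went 1 way in all mutant embryos, none of them past the adjusted threshold in mutants or in the interaction. Pax6 was higher dorsally in 5 of 5 mutants (log2 difference 1.39; edgeR unadjusted p of the interaction 0.00632). Hes1 was lower in 5 of 5 (-1.74; 0.00122), and so were Slit2 (-1.51; 0.000707), Tgfb2 (-1.80; 0.00104) and Wif1 (-2.05; 0.000128). Sox9 was lower dorsally in 5 of 5 mutants and 4 of 4 controls (-1.11 and -0.57), a difference between genotypes with an unadjusted p of 0.216.

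**Figure D4:**
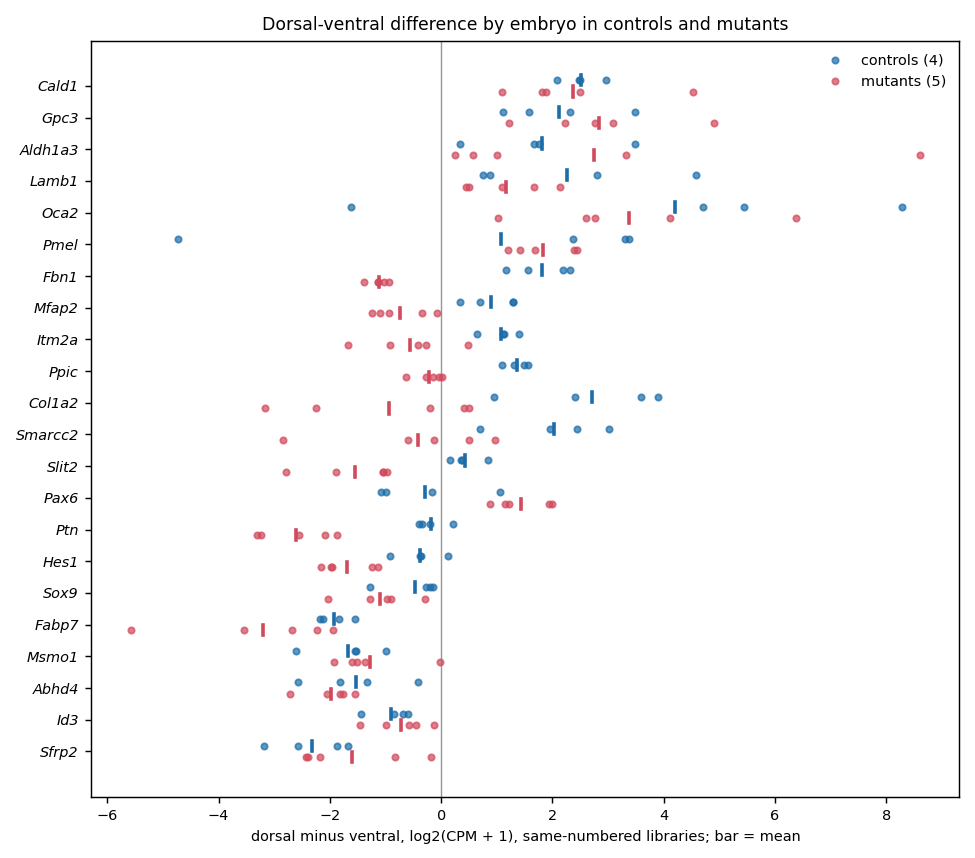
Dorsal minus ventral difference in log2(CPM + 1) for 22 genes, in controls (4 embryos, blue) and mutants (5 embryos, red). Each point is a pair of libraries of the same number and the bars are means; Cald1, Gpc3 and Aldh1a3 lie right of 0 and Fabp7 and Sfrp2 left of 0 in every pair of both genotypes, whereas Fbn1 and Mfap2 lie right of 0 in controls and left of 0 in mutants.

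The limits are those of 4 embryos. An exact permutation test of 4 against 4 libraries cannot give a p under 0.0286 (two-sided, 70 splits), and the paired sign-flip test over 4 embryos cannot go below 0.125 (16 patterns), so that evenness over embryos is described here by counts. Higher mesenchymal and endothelial marker sums moved with the dorsal strip, and their part in the differences of other genes was not tested.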

How the data were processed

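RNA was measured in pieces of embryonic stalk captured by laser from frozen sections and amplified by Geo-seq. Per the labels and the methods, reads from 1 end were aligned with STAR (mm10) by the authors, who deposited a table of counts per gene from HTSeq (Salmon is also named in the submitters' processing notes), whose versions and strand setting are not given in the sources used here. Counts are raw whole numbers without molecular identifiers. The table's 55487 gene identifiers were joined to the GENCODE annotation of mm10 for names, positions and exon overlap, and 55227 matched. All columns were mapped to samples by their names.

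CPM was computed from these counts as deposited, with the library total as divisor, and differences per embryo and over lists use log2(CPM + 1). A gene needed over 10 counts in 3 or more of the series' 27 libraries, and a count above 0 in those compared, to enter edgeR 4.0.16 (robust quasi-likelihood fit, TMM, Benjamini-Hochberg adjustment over all genes tested). A gene was called at an adjusted p under 0.05 with a log2 change over 0.58. Alternatives were DESeq2 1.42.0, limma 3.58.1 (voom), other scalings and filters, batch terms and leaving out libraries, in R 4.3.3 and Python 3.11.15. The fits were also run on simulated data, and the outcome is not given here. An "at least" fold sets a group's mean CPM over the mean floor (3 counts in each library) of a group at or under it. The p-values measure the spread between these pieces, which may be partly technical.

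The labels do not state that a number is an embryo, although the methods take all regions from each embryo. Deviations from the group means correlated at 0.053 to 0.11 between dorsal and ventral libraries of 1 number and at -0.08 to 0.071 between other pairs. The fit with the number as replicate block is therefore an alternative, given beside the counts.

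The members and the 26 gene lists were chosen with earlier results of these data known. From each list, up to 4 genes of smallest p and 3 of highest level could be named, with 12 determinants of eye patterning and of the complex in any case. Outside the lists up to 12 genes per direction by p, 6 by the blocked p and 4 by the interaction could be named. Aldoc, Fst, Msx1, Tgfb3, Dct, Tyr, Tyrp1, Isl1 and Tubb3 were named after their values were seen. Promoters came from RefSeq (GRCm38.p6). A few results are not reported here.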

Additional observations from a re-analysis of the deposited data

Results flagged for a closer look

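Within the groups of 4 libraries, single libraries stood far from the other 3 by Dixon's test in 27 of 266 groups of values examined. The cut-off stands for about 1 in 20 only where values are independent and normally distributed. Here the groups shared libraries, several held mostly counts of 0, and genes were named with their results known. The count is therefore a description and not an excess over chance. Dorsal library 3 accounted for 6 of the 27, ventral library 3 for 5 and dorsal library 4 for 0. Dorsal library 3 was the highest for Cald1 (416 CPM), Acta1 (160.0 CPM) and the share of haemoglobin counts (2.43%), and the lowest for Trpm1 (0 CPM), Lhx2 (0 CPM) and Pax2 (0.826 CPM). Ventral library 3 was the highest for Oca2 (14.3 CPM), Vim (3342 CPM) and Sox9 (575 CPM), and the lowest for Wnt7b (4.4 CPM) and for the mean of the retinal progenitor list (4.721 on the log2(CPM + 1) scale).

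Embryo 2 stood out by neuronal genes. Isl1 was at 127 CPM in its dorsal and 145 CPM in its ventral piece and at 0 in the other pieces, Insm1 was at 11.1 CPM ventrally, and the mean of the neuronal list was highest in its ventral piece (5.602 on the log2(CPM + 1) scale). Its dorsal piece was the highest for Tgfb2 (916 CPM), Des (41.1 CPM) and the mean of the melanoblast and Schwann cell list (3.926 on that scale).

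The remaining libraries that stood apart were ventral library 4 for Piezo2 (0.932 CPM, highest), Otx2 (3.54 CPM, highest), Tgfb3 (1.06 CPM, highest) and Nxn (99.3 CPM, lowest), ventral library 1 for Cthrc1 (3.12 CPM, lowest) and Lfng (3.12 CPM, highest), and dorsal library 1 for Tmem119 (20.1 CPM, lowest), Vax2 (0.208 CPM, highest) and Mlana (21.7 CPM, highest).

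The difference between dorsal and ventral pieces itself differed between controls and mutants for Fam49a (adjusted p 0.0244) and Ptn (adjusted p 0.0255) in edgeR's test of the interaction. In mutants both were lower dorsally in 5 of 5 embryos, and in controls Fam49a was higher dorsally in 3 of 4 and Ptn in 1 of 4.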

How the results depend on the processing

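The count of called genes depended on the tool. It was 0 in the edgeR fit reported and 0 to 1 when 1 library was left out (1 without ventral library 3, the matrix proteoglycan gene Dcn), 243 in DESeq2, 19 in voom, 9 in the newer edgeR method and 11 with no count filter. DESeq2 gave 246, 281, 193 and 386 without dorsal libraries 1 to 4 and 230, 267, 261 and 347 without ventral libraries 1 to 4 (alternatives chosen after seeing the data). At an unadjusted p under 0.05 the higher and lower genes numbered 1421 and 1703 with no count filter, 238 and 201 with the filter over the 8 libraries, 322 and 297 with batch as a term, 259 and 177 in batch B alone, 258 to 498 and 246 to 484 with 1 library left out. Genes with no overlap numbered 706 and 682 without embryo 1, and 530 and 345 without dorsal library 3, and 674 and 553 genes moved one way in each of the 3 embryos without embryo 3. Fewer libraries make these last conditions easier to meet.

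With the replicate block, which pairs the strips by number, the counts were 197 and 213, with 0 called, and DESeq2 with the replicate block called 636 (chosen after seeing the data). The interaction passed for 623 genes in DESeq2, 0 with the replicate block, 1 without the batch term, 0 in batch B alone and 0 to 5 with 1 library left out.

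Of 119 named genes, 103 kept their direction in 18 alternatives. The other 16 reversed in at least 1, and the cause was not tested. In log2 units, voom gave Trpm1 -1.02, Otx1 -0.0467, Mitf -2.36 and Smarcc1 -0.0425; the replicate block gave Mitf -0.748, Vax1 -0.182, Smarcc1 -0.0136 and Tubb3 -0.388; batch as a term gave Mitf -0.153. Batch B alone gave Mitf -0.578, Ptch1 0.247, Nr2f2 -0.0481, Smarca4 0.111 and Slc1a3 0.0284, and RLE scaling and DESeq2 gave Slc1a3 0.0179. With 1 library left out the ranges were -0.298 to 0.599 for Tgfb2, -0.24 to 0.48 for Otx1, -0.501 to 0.428 for Mitf, -1.65 to 12.5 for Acta1, -0.57 to 0.055 for Vim, -0.0832 to 0.331 for Wif1, -0.742 to 0.19 for Ptch1, -0.657 to 0.0794 for Pax2, -0.167 to 0.156 for Nr2f2, -0.46 to 0.469 for Smarcc1, -0.43 to 0.0427 for Smarca4, -12.3 to 12.0 for Isl1, -0.178 to 0.107 for Slc1a3 and -0.9 to 7.09 for Tubb3.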
